A study of Homo sapiens with 6 samples.

Results

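The 48 genes described here are interferon-stimulated genes, genes that cells switch on when interferon binds its receptor. They were taken as a fixed list of symbols, from sensors of viral RNA to antiviral effectors, and all 48 were found among the 58051 genes of the count files (DDX58 under its current symbol, RIGI). They were measured in A172, an established human glioblastoma cell line, made into stable lines with a lentiviral plasmid for RBFOX1 (pLX317-RBFOX1) or for GFP (pLX317-GFP) as control, with 3 biological replicates of each. Both groups therefore went through lentiviral transduction with polybrene, no treatment with interferon is described, and untransduced cells were not analysed here. RBFOX1 is an RNA-binding protein that recognises the motif written TGCATG in DNA letters and regulates splicing and mRNA stability. The questions were which of these genes differed between RBFOX1-overexpressing and GFP cells, and whether RBFOX1 replicate 3 lay low across the whole list or only in some genes.

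In the interferon response, type I interferons bind the receptor IFNAR1 and IFNAR2, the kinases JAK1 and TYK2 phosphorylate STAT proteins such as STAT2, and STAT2 joins IRF9 in a complex that binds the interferon-stimulated response element (ISRE) in promoters. Cells make interferon when sensors such as RIG-I, MDA5 and TLR3 detect viral RNA and signal through MAVS or TICAM1 and the kinase TBK1. Many of the induced proteins bind viral RNA, block entry or budding of virus, or tag proteins with the ubiquitin-like ISG15, and some feed back on the pathway, as USP18 does by restraining signalling at the receptor.

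The ISRE is the promoter element of this response, so its letters were searched in the promoters of the members. RefSeq promoters (GRCh38.p14, from 250 bases before to 50 bases after each start site) were given for 40 of the 48 genes. The entries not matched were DHX58, IRF7, IFIT2, OAS2, OASL, IFITM2, USP18 and TRIM22. The ISRE letters, GAAA followed by any 2 bases and a further GAAA, on either strand, were found in 27 of the 40 (67.5%), against 1195 of 27305 genes of the whole table (4.38%). They were present in 15 of 22 members that rose in RBFOX1 cells, in 5 of 7 that fell and in 7 of 11 that did not pass the test. Of the members that rose at least 2-fold, 12 of 14 held them. The GAS letters TTCNNNGAA, the gamma-activated sequence of interferon gamma signalling, which can share bases with the first motif, were present in 11 of the 40 (27.5%), against 9.38% of all genes. A match describes letters only and is not evidence of binding. The following 30-base stretches, read on the strand of the gene, show the match in capitals in 7 members that rose, 4 that fell and 1 that did not pass the test, to show that the same letters stand before genes of every outcome.
IFITM1, rose, chr11:314024-314053, plus strand: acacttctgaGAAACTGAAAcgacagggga
BST2, rose, chr19:17405741-17405770, minus strand: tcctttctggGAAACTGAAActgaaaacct
IFI27, rose, chr14:94110631-94110660, plus strand: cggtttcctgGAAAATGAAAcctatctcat
EPSTI1, rose, chr13:42992272-42992301, minus strand: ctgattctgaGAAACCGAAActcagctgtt
IFI6, rose, chr1:27672288-27672317, minus strand: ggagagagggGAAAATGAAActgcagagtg
ISG15, rose, chr1:1013380-1013409, plus strand: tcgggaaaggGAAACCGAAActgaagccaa
IFIT1, rose, chr10:89392510-89392539, plus strand, with the motif on the other strand: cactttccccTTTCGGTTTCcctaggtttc
IFIT5, fell, chr10:89414554-89414583, plus strand, with the motif on the other strand: atttcttaagTTTCAGTTTCtgagcgctcg
EIF2AK2, fell, chr2:37156967-37156996, minus strand: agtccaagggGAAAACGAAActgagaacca
PARP14, fell, chr3:122680800-122680829, plus strand: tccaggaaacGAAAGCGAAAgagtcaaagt
SAMD9, fell, chr7:93118096-93118125, minus strand: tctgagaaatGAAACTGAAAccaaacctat
DDX60, did not pass the test, chr4:168318786-168318815, minus strand: gaggagaaagGAAACCGAAActcccgccgg

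The libraries held 7433414 to 23249221 counts on genes, RBFOX1 replicate 1 being the shallowest, and values below are normalized counts, that is counts scaled to a common effective library size with edgeR's TMM method. RBFOX1 itself had 4, 0 and 1 counts in the GFP libraries and 10276, 16467 and 21451 in the RBFOX1 libraries, as the labels state, although gene-level counting does not separate the construct from the cells' own gene. Of 10 glioma markers, VIM, CD44 and NES were abundant in every library, while GFAP and S100B were at or near 0. The group moved with the condition, since NES (log2 fold change 0.60), SOX2 (2.53) and CHI3L1 (6.60) rose and VIM (-0.65), CD44 (-0.90), SOX9 (-1.14), FN1 (-0.34) and OLIG2 (-0.50) fell. Of 11 leukocyte markers, CD3E, MS4A1, NKG7, AIF1, CLEC4C and LILRA4 were at 0 in every library, and the summed level of the list was 85.2 to 103 normalized counts in GFP and 118 to 131 in RBFOX1 cells. PTPRC rose (23.1, 11.7 and 13.7 in GFP and 49.0, 64.4 and 67.6 in RBFOX1 cells, log2 fold change 1.82), CSF1R rose (1.01), ITGAM fell (-1.20) and CD14 did not pass the test, and the part of these markers in the results was not tested. No 2 libraries of a group were alike within counting noise (chi-square per degree of freedom of 1.60 to 8.23). The p-values measure the spread between these libraries, each counted as 1 sample.

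More of the genes rose than fell, and the rises were far larger than the falls. By edgeR's quasi-likelihood test, with p-values adjusted over all 20536 genes tested and a threshold of 0.05, 27 of the 48 were higher in RBFOX1 cells, where 23.7% of all genes tested were called higher, and 8 were lower, where 22.9% were. The other 13 did not pass the threshold. With a log2 fold change of at least 1, 17 rose and 0 fell by that much. The shares of all genes just given do not apply to this stricter threshold. The median log2 fold change was 0.37 over the members and 0.0051 over all genes tested. All 3 RBFOX1 libraries lay above all 3 GFP libraries in 25 members (26.9% of genes tested) and below them in 6 (26.5%), and the groups overlapped in 17. In single libraries, the median difference of the members from the GFP mean was -0.032, 0.070 and -0.033 on the log2 scale in GFP replicates 1 to 3 and 0.47, 0.60 and 0.11 in RBFOX1 replicates 1 to 3. The bulk counts do not tell a change in every cell from a change in a few cells.

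**Figure D1:**
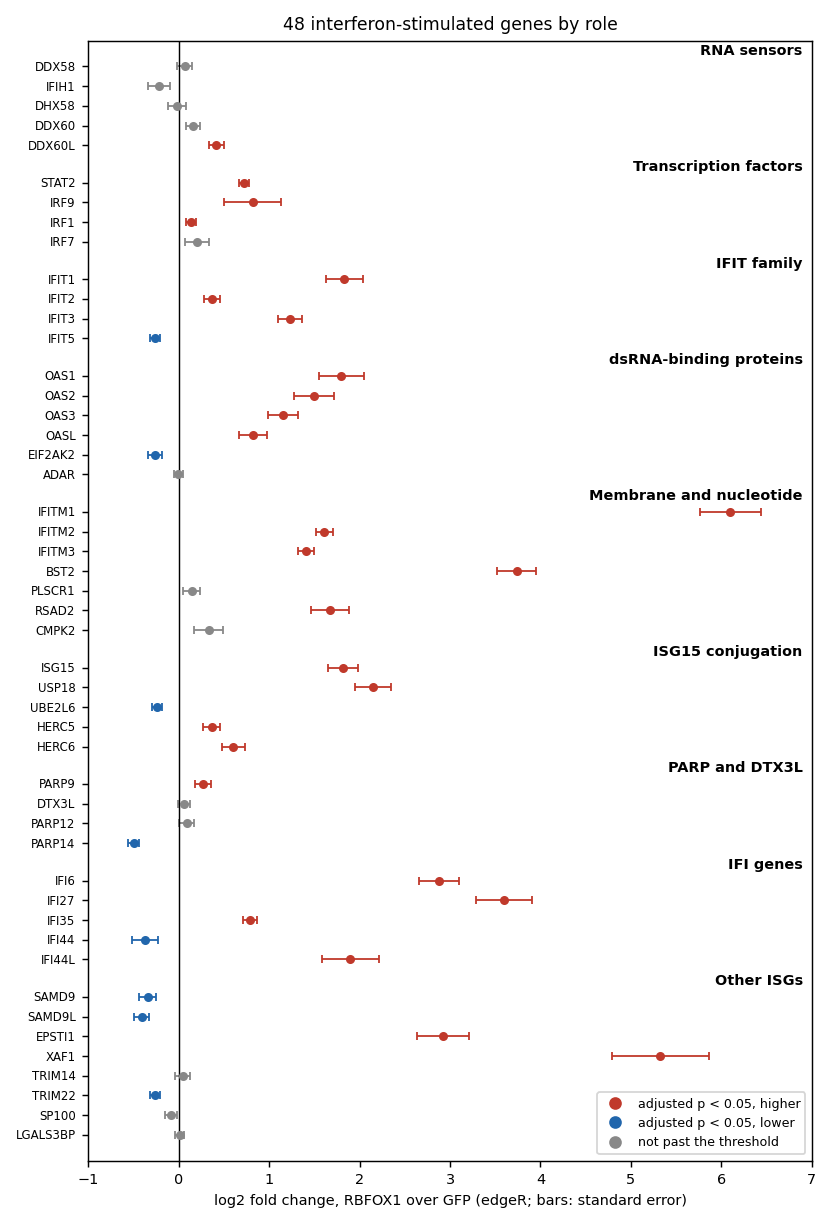
Log2 fold change of each of the 48 genes in RBFOX1 over GFP cells (x axis), grouped by role, with the standard error of the edgeR fit as bars and 3 libraries per group. Red points passed the threshold as higher (27 genes), blue points as lower (8), and grey points did not pass it (13). The rises reach 6.10 (IFITM1) and the falls stop at -0.50 (PARP14).

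Of the 7 effectors that act at membranes or on nucleotides, 5 rose and 2 did not pass the test, with a median log2 fold change of 1.61. IFITM1 (ENSG00000185885, chromosome 11, 310041 to 315272 on the plus strand of GRCh38), which hinders fusion of viruses with cell membranes, had normalized counts of 5.46, 14 and 4.21 in the GFP libraries and 686, 567 and 314 in the RBFOX1 libraries. The groups lay far apart, the lowest RBFOX1 library being replicate 3. The log2 fold change was 6.10 (SE 0.335, adjusted p = 7.42e-12), from 7.90 ± 5.33 to 522 ± 190 (SD, n = 3 each). Its size rested on few counts in the GFP libraries (9, 12 and 4 before scaling).
Its neighbours IFITM2 and IFITM3 are close paralogs of each other, so reads may be divided between them. IFITM2 had 191, 195 and 219 normalized counts in GFP and 682, 623 and 551 in RBFOX1 cells (log2 fold change 1.61, SE 0.0897). IFITM3 had 1427, 1519 and 1513 in GFP and 4599.9, 4063 and 3195 in RBFOX1 cells (log2 fold change 1.41, SE 0.0878). All 3 IFITM genes, which stand within chromosome 11 from 303655 to 329475, thus rose without overlap between the groups, and in each RBFOX1 replicate 1 was the highest library and replicate 3 the lowest of its group.
BST2 (ENSG00000130303, chromosome 19, 17402939 to 17405630, minus strand), also called tetherin because it holds budding virus at the cell surface, had 34.6, 46.7 and 42.1 normalized counts in GFP and 653, 632 and 351 in RBFOX1 cells. It was 13.3-fold higher (log2 fold change 3.74, SE 0.214, adjusted p = 1.42e-11), and every RBFOX1 library stood above every GFP library.
RSAD2, the radical SAM enzyme viperin, rose with a log2 fold change of 1.67 (SE 0.212), whereas CMPK2, which starts beside it on the other strand and overlaps it, had 0.33 (SE 0.159, adjusted p = 0.10). CMPK2 passed the threshold without RBFOX1 replicate 3 (0.58, adjusted p = 0.00156). PLSCR1, a phospholipid scramblase, had 0.14 (SE 0.0910, adjusted p = 0.222), and 0.26 (adjusted p = 0.0280) without RBFOX1 replicate 3.

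Of the 5 genes named IFI, 4 rose and 1 fell. IFI27 (ENSG00000165949, chromosome 14, 94104836 to 94116695, plus strand), a mitochondrial protein widely used as a marker of interferon exposure, had 31.6, 44.4 and 31.6 normalized counts in GFP and 635, 479 and 218 in RBFOX1 cells. Even its lowest RBFOX1 library lay above the highest GFP library, and its log2 fold change was 3.60 (SE 0.307, adjusted p = 6.07e-09).
IFI6 (ENSG00000126709, chromosome 1, 27666064 to 27672212, minus strand), which opposes apoptosis and flavivirus replication, had 109, 138 and 107 normalized counts in GFP and 1183, 950.4 and 499 in RBFOX1 cells. The log2 fold change was 2.87 (SE 0.222, adjusted p = 1.43e-09) with no overlap. In GENCODE 44 the long noncoding RNA LINC02574 shares 23.1% of its exonic bases on the same strand, and reads that fit both genes are not counted, so its level may be too low.
IFI35 rose by 0.78 (SE 0.0777) on the log2 scale.
The neighbours IFI44L and IFI44, 3650 bases apart on the same strand of chromosome 1, were called in opposite directions. IFI44L (ENSG00000137959, chromosome 1, 78619902 to 78646145, plus strand) had 35.8, 40.9 and 36.9 normalized counts in GFP and 125, 231 and 67.6 in RBFOX1 cells, a log2 fold change of 1.90 (SE 0.316, adjusted p = 4.53e-05). IFI44 (ENSG00000137965, chromosome 1, 78649796 to 78664078, plus strand) had 452, 486 and 414 in GFP and 419, 421 and 231 in RBFOX1 cells, a log2 fold change of -0.37 (SE 0.145, adjusted p = 0.0408). The groups of IFI44 overlapped, and its value was -0.095 (adjusted p = 0.442) without RBFOX1 replicate 3. The call was also lost without GFP replicate 2 (-0.33, adjusted p = 0.0900), with total counts (adjusted p = 0.0813), with a filter of at least 10 counts in each of 3 libraries (adjusted p = 0.0644) and with DESeq2 (adjusted p = 0.408). The test of the difference between these neighbours was not made.

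Of the 5 genes of the ISG15 conjugation pathway, 4 rose and 1 fell. ISG15, the ubiquitin-like modifier, had 239, 213 and 209 normalized counts in GFP and 1032, 863 and 514 in RBFOX1 cells, a log2 fold change of 1.82 (SE 0.168, adjusted p = 1.89e-08). USP18 (ENSG00000184979, chromosome 22, 18150118 to 18177397, plus strand), the protease that removes ISG15 from proteins, had 29.1, 42.0 and 34.8 in GFP and 145, 197 and 116 in RBFOX1 cells. Its log2 fold change was 2.15 (SE 0.197, adjusted p = 1.67e-08), and its groups did not overlap. The ligase HERC5 rose by 0.36 (SE 0.0974), with 0.22 (adjusted p = 0.0615) without RBFOX1 replicate 2, and its neighbour HERC6 rose by 0.60 (SE 0.127) on the log2 scale. UBE2L6, the E2 enzyme that conjugates ISG15, fell with a log2 fold change of -0.24 (SE 0.0550, adjusted p = 0.00130).

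Among the 4 IFIT genes, whose products bind viral RNA or translation factors, IFIT1, IFIT2 and IFIT3 rose and IFIT5 fell, within 1 cluster on chromosome 10 (89283694 to 89421605, all on the plus strand). IFIT1 had 187, 228 and 179 normalized counts in GFP and 675, 1011 and 423 in RBFOX1 cells (log2 fold change 1.83, SE 0.208). IFIT3 rose by 1.23 (SE 0.134) and IFIT2 by 0.37 (SE 0.0933). IFIT5 had 1283, 1274 and 1272 in GFP and 1094, 1102 and 996 in RBFOX1 cells, a log2 fold change of -0.27 (SE 0.0566, adjusted p = 0.000578), with every RBFOX1 library below every GFP library.

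The oligoadenylate synthetases OAS1, OAS2 and OAS3 make an oligonucleotide messenger when they bind double-stranded RNA. They and the related OASL all rose. OAS1 (ENSG00000089127, chromosome 12, 112905856 to 112933219, plus strand) had 87.4, 132 and 88.5 normalized counts in GFP and 409.9, 476 and 184 in RBFOX1 cells, a log2 fold change of 1.80 (SE 0.248, adjusted p = 4.56e-06). OAS2 had 86.2, 134 and 90.6 in GFP and 339, 372 and 167 in RBFOX1 cells, a log2 fold change of 1.5 (SE 0.223). OAS3, between them, rose by 1.15 (SE 0.163), and OASL, an OAS-like protein elsewhere on chromosome 12, by 0.82 (SE 0.154). In OAS1 and OAS2 the groups did not overlap, but RBFOX1 replicate 3 stood nearer to GFP replicate 2 than to the other RBFOX1 libraries.
EIF2AK2 (ENSG00000055332, chromosome 2, 37099210 to 37157522, minus strand), the kinase PKR that stops translation on double-stranded RNA, had 2280.2, 2803 and 2574 normalized counts in GFP and 2111, 2361 and 1886 in RBFOX1 cells. The groups overlapped, the log2 fold change was -0.27 (SE 0.0754, adjusted p = 0.00647), and it was -0.18 (adjusted p = 0.0834) without RBFOX1 replicate 3. ADAR, the RNA-editing enzyme, had 7133, 7912 and 7477 in GFP and 7843, 7521 and 7079 in RBFOX1 cells, a log2 fold change of -0.0054 (SE 0.0525, adjusted p = 0.947).

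**Figure D2:**
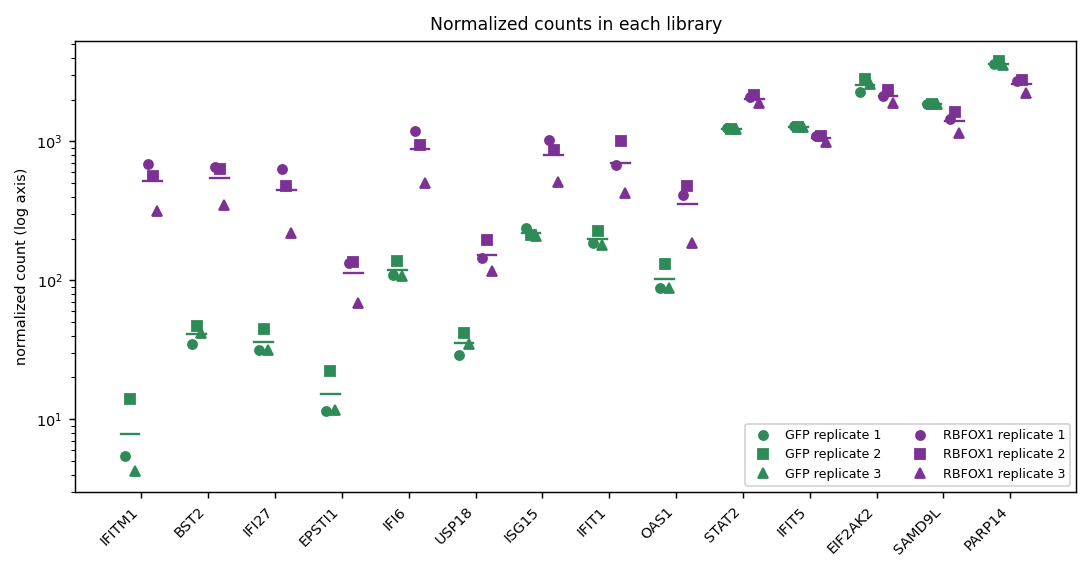
Normalized counts (log axis) of 14 of the genes in each of the 6 libraries. Green marks are GFP and purple marks RBFOX1 libraries, with a circle, square and triangle for replicates 1, 2 and 3, and the line is the mean of the group. The purple triangles are the lowest purple marks in every gene, and those of IFITM1 to STAT2 are still above the green marks.

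Of the 5 sensors of viral RNA, 4 did not pass the test and DDX60L rose by 0.41 (SE 0.0837) on the log2 scale. DDX58, which encodes RIG-I, had 1102, 1143 and 1119.8 normalized counts in GFP and 1189.9, 1369 and 972 in RBFOX1 cells (log2 fold change 0.065, SE 0.0849, adjusted p = 0.576). IFIH1, which encodes MDA5, had 287, 287 and 284 in GFP and 281, 288 and 186 in RBFOX1 cells (-0.22, SE 0.120, adjusted p = 0.157). DHX58, which encodes LGP2, had 288, 260.4 and 258 in GFP and 268, 308 and 232 in RBFOX1 cells (-0.015, SE 0.10, adjusted p = 0.920).
In DDX58 replicate 3 lay below the GFP libraries while the other RBFOX1 libraries lay above them, and in IFIH1 replicate 3 alone lay far below the GFP libraries. Without RBFOX1 replicate 3, the log2 fold change of DDX58 was 0.20 (adjusted p = 0.0289), that of DDX60 was 0.24 (adjusted p = 0.0267, against 0.16 and 0.102 with all libraries), and that of IFIH1 was -0.00185 (adjusted p = 0.992). Without RBFOX1 replicate 2, IFIH1 was called lower (-0.35, adjusted p = 0.0446).

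Among the 4 transcription factors, STAT2 gave the clearest rise. It had 1248, 1238 and 1225 normalized counts in GFP and 2086, 2143 and 1886 in RBFOX1 cells, a log2 fold change of 0.72 (SE 0.0559, adjusted p = 1.56e-09). IRF9, its DNA-binding partner, was counted at a low level, with 16.4, 16.3 and 13.7 normalized counts in GFP and 43.5, 31.1 and 15.5 in RBFOX1 cells. Its log2 fold change was 0.82 (SE 0.318, adjusted p = 0.0414), its groups overlapped, and the call was lost with DESeq2 and with limma-voom, and when any library but RBFOX1 replicate 3 was left out (adjusted p from 0.0577 to 0.197). A protein-coding gene on the same strand, ENSG00000259529 (chromosome 14, 24147548 to 24166452), shares 23.9% of the exonic bases of IRF9 in GENCODE 44, and HTSeq assigns a read that fits both genes to neither, so the counts of IRF9 may be too low.
IRF1, an activator induced mainly by interferon gamma, had 1154, 1191 and 1142 in GFP and 1362, 1259 and 1232 in RBFOX1 cells (0.14, SE 0.0560, adjusted p = 0.0478), and lost its call in 8 of 14 alternatives. IRF7, which amplifies interferon production, had 97.7, 94.6 and 87.4 in GFP and 109, 123 and 94.1 in RBFOX1 cells (0.20, SE 0.132, adjusted p = 0.229).

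Of the PARP family and its partner, PARP9 rose by 0.27 (SE 0.0844) on the log2 scale, DTX3L and PARP12 did not pass the test, and PARP14 fell. The rise of PARP9 was lost without RBFOX1 replicate 1 (0.24, adjusted p = 0.0552) and without RBFOX1 replicate 2 (0.18, adjusted p = 0.126), and its value was 0.40 without RBFOX1 replicate 3. PARP14 (ENSG00000173193, chromosome 3, 122680839 to 122730840, plus strand), an ADP-ribosyltransferase, had 3609.7, 3780.1 and 3524 normalized counts in GFP and 2717, 2781 and 2237 in RBFOX1 cells. The groups did not overlap, and its log2 fold change of -0.50 (SE 0.0655, adjusted p = 2.33e-06) was the largest fall of the list.
The paired antiviral genes SAMD9 and SAMD9L on chromosome 7 fell together. SAMD9L (ENSG00000177409, 93130056 to 93148385, minus strand) had 1872, 1874 and 1848 in GFP and 1455, 1624 and 1151 in RBFOX1 cells (-0.41, SE 0.0825, adjusted p = 0.000346). SAMD9 (ENSG00000205413, 93099513 to 93118023, minus strand) had 1992, 1957 and 1906 in GFP and 1583, 1846 and 1204 in RBFOX1 cells (-0.34, SE 0.0954, adjusted p = 0.00539). Their groups did not overlap, but without RBFOX1 replicate 3 the fall of SAMD9L was -0.27 (adjusted p = 0.00273), and the fall of SAMD9 was -0.18 (adjusted p = 0.0482) and was not called by DESeq2 (adjusted p = 0.121).
TRIM22, a restriction factor, fell by 0.26 (SE 0.0577) on the log2 scale, and TRIM14, SP100 and LGALS3BP did not pass the test.

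Among the remaining members, EPSTI1 and XAF1 rose from near-absent levels. EPSTI1 (ENSG00000133106, chromosome 13, 42886388 to 42992271, minus strand) had 11.5, 22.2 and 11.6 normalized counts in GFP and 134, 135 and 68.5 in RBFOX1 cells, a log2 fold change of 2.92 (SE 0.286, adjusted p = 4.55e-08). XAF1 (ENSG00000132530, chromosome 17, 6755447 to 6775647, plus strand), which promotes apoptosis by opposing XIAP, had 5, 0 and 2 counts in the GFP libraries and 60, 110 and 43 in the RBFOX1 libraries, so that its fitted log2 fold change of 5.33 (SE 0.536) rested on very few GFP counts. In both genes every RBFOX1 library lay above every GFP library.

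Levels can be compared between genes only per length, so counts before scaling were divided by exonic length and by effective library size and expressed as FPKM. In GFP cells the highest members were LGALS3BP, a secreted galectin-binding protein, at 197 ± 2.33 FPKM (SD, n = 3), UBE2L6 at 61.8 ± 2.35 and ADAR at 44.2 ± 2.30. In RBFOX1 cells LGALS3BP was at 198 ± 10.6, followed by IFITM3 at 100.2 ± 18, IFI6 at 67.6 ± 26.7 and ISG15 at 66.7 ± 22.0, the last pair lying closer than their spread. IFITM1 went from 0.342 ± 0.231 to 22.6 ± 8.21 FPKM. IFI44L at 0.876 ± 0.514 and XAF1 at 0.981 ± 0.485 were among the lowest in RBFOX1 cells and differed by less than their spread.

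RBFOX1 replicate 3 was the lowest library of its group in 48 of 48 members, so the unevenness ran through the whole list, while over all genes tested it was the lowest of the 3 in 29.6%. RBFOX1 replicates 1 and 2 were the lowest in 0 members, against 42.3% and 27.1% of all genes tested. They were the highest in 15 and 33 members (31.25% and 68.75%, against 31.8% and 37.4% of all genes tested). The count of 48 was the same under TMM, DESeq2 size factors, upper quartile scaling and total counts. On the log2 scale replicate 3 lay below the mean of replicates 1 and 2 by a median of 0.41, that is 1.32-fold, while its median over all genes tested was 0.0056 above. The summed normalized counts of the members were 59742, 59686 and 47970 in RBFOX1 replicates 1, 2 and 3, and 47394 to 50019 in the GFP libraries. No test was made of this pattern, since it sets 1 library against 2, and it was known from the earlier results that led to the choice of these genes.

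The size of the drop differed widely between members. It was smallest in IRF1, where replicate 3 lay 1.06-fold below the mean of the others, LGALS3BP (1.08-fold) and ADAR (1.08-fold). LGALS3BP had 9441, 9363 and 9223 normalized counts in GFP and 9923, 9414 and 8919 in RBFOX1 cells, so that replicate 3 was only slightly the lowest. Among members with a mean of at least 50 normalized counts it was largest in IFI27 (2.52-fold), IFI44L (2.51-fold), OAS1 (2.39-fold), OAS2 (2.12-fold), IFI6 (2.12-fold) and IFITM1 (1.98-fold), all genes that had risen. XAF1 (2.91-fold) and IRF9 (2.33-fold) lay under that level.
Replicate 3 was at least 1.5-fold below in 19 of the 48 members (39.6%), against 7.33% of all genes tested. Among genes with a mean of at least 50 it was so in 17 of 46 members (37.0%) and in 45 of all 12012 genes (0.375%), so the members made up 37.8% of those 45. The median difference of replicate 3 was -0.87 (log2) in the 27 members that rose, -0.97 in the 17 that rose at least 2-fold, -0.27 in the 8 that fell and -0.29 in the 13 that did not pass the test. These groupings use the same libraries and are given as a description.

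**Figure D3:**
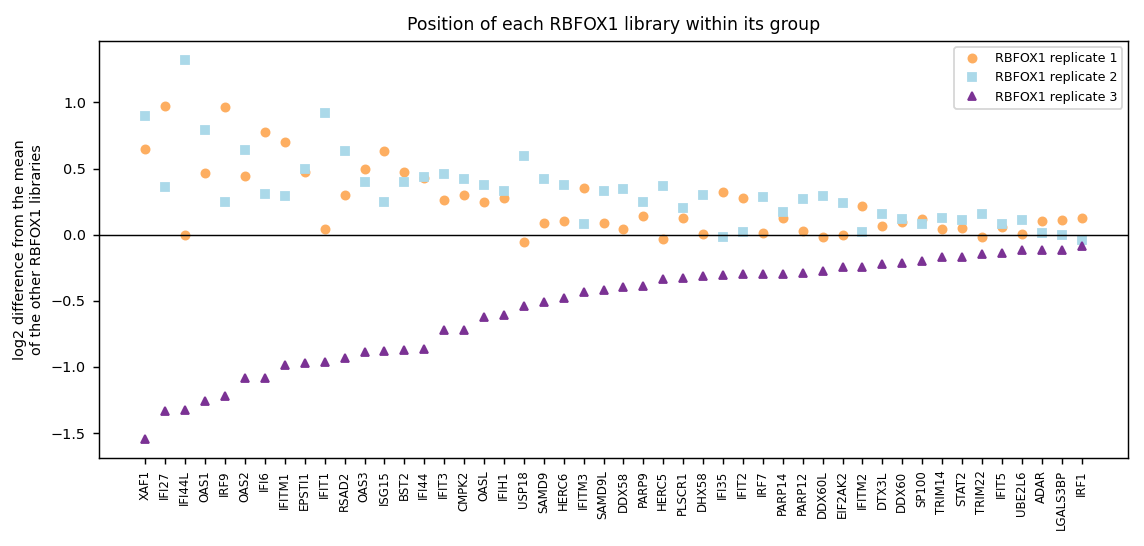
Log2 difference of each RBFOX1 library from the mean of the other RBFOX1 libraries (y axis) for each of the 48 genes, ordered by the value of replicate 3. The triangles of replicate 3 lie below 0 in all 48 genes, from -1.54 (XAF1) to -0.088 (IRF1).

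By role, the median drop of replicate 3 was 2.12-fold in the IFI genes, 1.69-fold in the proteins that bind double-stranded RNA and 1.65-fold in the membrane and nucleotide effectors. It was 1.43-fold in the IFIT genes, 1.39-fold in ISG15 conjugation, 1.24-fold in the sensors, 1.23-fold in the PARP group and 1.17-fold in the transcription factors. Replicate 3 was the lowest RBFOX1 library in every member of every role.
Set against the control cells, replicate 3 lay above all GFP libraries in 25 members, within their range in 8 and below them all in 15. For RBFOX1 replicate 1 these were 35 members above and 8 below, and for replicate 2 they were 36 and 6. The matching shares over all genes were not computed for single libraries, so these counts are a description only. All 3 RBFOX1 libraries together lay below all GFP libraries in 26.5% of genes tested. That is a stricter condition and is no background for the counts of single libraries.
RBFOX1 replicate 3 had the highest share of read pairs with low mapping quality (27.0%) and not aligned (7.46%) of the 6 libraries and replicate 1 the lowest (16.8% and 4.64%), whose part in the result was not tested. The level of RBFOX1 RNA was 18639, 18282 and 19587 normalized counts in replicates 1, 2 and 3, and its part in the result was not tested. The leukocyte markers summed to 131, 124 and 118, and their part in the result was not tested.

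**Figure D4:**
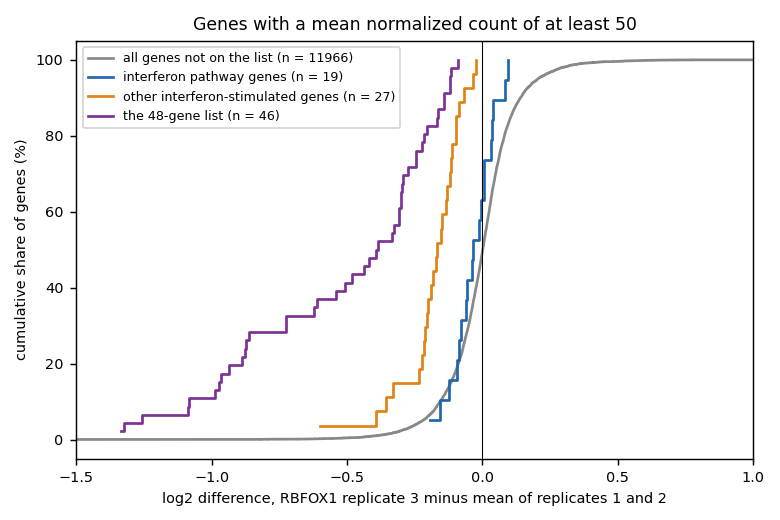
Cumulative share of genes (y axis, percent) against the log2 difference of RBFOX1 replicate 3 from the mean of replicates 1 and 2 (x axis), for genes averaging at least 50 normalized counts. The curve of the 46 listed genes (purple) ends left of 0, whereas that of the 11966 genes not on the list (grey) is centred on 0. The 19 interferon pathway genes (blue) and 27 other interferon-stimulated genes (orange) are drawn for comparison.

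Genes that make, receive and transmit interferon fell more often than they rose. Of 44 such genes that are not on the list, 21 were expressed enough to be tested, of which 3 rose (14.3%, against 23.7% of all genes tested), 11 fell (52.4%, against 22.9%) and 7 did not pass the test. RBFOX1 replicate 3 was the lowest of its group in 7 of the 21 (33.3%, against 29.6% of all genes tested), with a median log2 difference of -0.012.
Interferon ligands were near absent. IFNB1 had 4, 2 and 4 counts in GFP and 1, 1 and 3 in RBFOX1 cells, IFNA21 had 1 count in a single library, and the other 19 ligand genes were listed at 0 in every library.
Of 5 receptor subunits tested, 4 fell. IFNAR1 had 1288, 1594 and 1582 normalized counts in GFP and 1125, 1120.2 and 1032 in RBFOX1 cells (log2 fold change -0.44, SE 0.0730), IFNGR1 fell by 0.44 (SE 0.0713), IFNGR2 by 0.61 (SE 0.0537) and IL10RB by 0.75 (SE 0.0737) on the log2 scale. IFNAR2 had -0.26 (SE 0.149, adjusted p = 0.167), and it was called lower without GFP replicate 1 (-0.48, adjusted p = 0.00162).
Of the kinases, JAK1 (-0.24, SE 0.0468) and JAK2 (-0.57, SE 0.0783) fell, and TYK2 had -0.051 (SE 0.0519, adjusted p = 0.457).
Of the sensing genes, TLR3 (-0.68, SE 0.0858), MAVS (-0.70, SE 0.0502), TBK1 (-0.40, SE 0.0618) and IKBKE (-0.55, SE 0.0816) fell, while STING1 rose by 0.22 (SE 0.0742) on the log2 scale. The rise of STING1 was lost without GFP replicate 1 (0.18, adjusted p = 0.0597), without RBFOX1 replicate 1 (0.17, adjusted p = 0.0780) and with DESeq2 (adjusted p = 0.0609). Of the inhibitors, SOCS3, a feedback inhibitor of cytokine signalling, rose by 1.28 (SE 0.0869) and PIAS1 by 0.30 (SE 0.0648), and PIAS4 fell by 0.27 (SE 0.0824) on the log2 scale. The fall of PIAS4 was lost without GFP replicate 3 (-0.21, adjusted p = 0.0651).
The paralogs MX1 and MX2, neighbours on chromosome 21 and classical interferon-stimulated genes that are not on the list, were called in opposite directions. MX1 had 357, 341 and 369.8 normalized counts in GFP and 227, 212 and 203 in RBFOX1 cells (-0.75, SE 0.0839), and MX2 had 323, 362 and 282 in GFP and 932, 980.3 and 626 in RBFOX1 cells (1.38, SE 0.127).

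**Figure D5:**
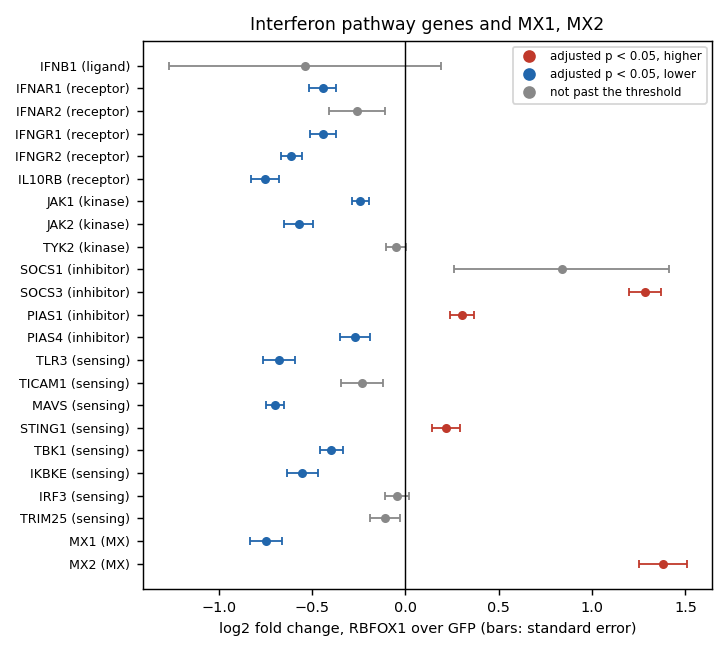
Log2 fold change between RBFOX1 and GFP cells (x axis, positive where RBFOX1 is higher, bars are standard errors) of the 21 tested interferon pathway genes that are not on the list and of MX1 and MX2. Red points passed the threshold as higher, blue as lower and grey did not pass it. The receptors IFNAR1, IFNGR1, IFNGR2 and IL10RB lie left of 0, and SOCS3 and MX2 lie right of it.

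The RBFOX motif was not common in the 3' UTRs of the list. TGCATG, searched on the strand of the transcript only, was present in the canonical 3' UTR of 9 of the 48 members (18.8%) and of 5131 of 14050 tested protein-coding genes (36.5%), whose 3' UTRs were longer, with a median of 1298 bases against 1013. The 9 were EPSTI1, IFIT1, IFIT3, OAS3, XAF1 and IFI35, which rose, EIF2AK2, which fell, and SP100 and TRIM14, which did not pass the test. IFITM1, BST2, IFI27, IFI6 and USP18 held no match. Sites of 1 member that rose and of 1 that fell are printed with the motif in capitals and the position of the motif on GRCh38, to show its setting.
EPSTI1, rose, chr13:42888320-42888325, minus strand: tgtcctcatttaTGCATGtttggaggagct
EIF2AK2, fell, chr2:37103831-37103836, minus strand: ttttttaggcaaTGCATGcacaaacattta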

How the data were processed

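Stranded paired-end reads of rRNA-depleted RNA from 6 A172 samples (3 GFP, 3 RBFOX1) were used as counts. The labels do not say whether each replicate was a separately transduced line. Reads had been aligned by the authors to GRCh38 (HISAT2) and counted per Ensembl version 87 gene (HTSeq, intersection-strict), and the counts were deposited without normalization. The deposited counts are named as reverse-stranded, so genes that overlap on opposite strands (CMPK2 and RSAD2, PARP9 and DTX3L) were counted apart. A DESeq2 table of fold changes and p-values, also from the authors, was not used. Lines naming no gene (38.1 to 48.0% of read pairs) were left out, and TMM scaling preceded a two-sided quasi-likelihood test in edgeR 4.0.16 under R 4.3.3 with condition as the only term, over genes with at least 10 counts in all, with Benjamini-Hochberg adjustment at 0.05. Log2 differences between libraries used a prior of 0.5. The procedure was tested on simulated data. DESeq2 1.42.0, limma-voom (limma 3.58.1), other scalings, filters and thresholds, a fold minimum, a replicate block and the omission of each library were alternatives. GENCODE 44 gave symbols, exonic lengths and 3' UTRs (98.1% of identifiers matched), and RefSeq the promoters. Library values are given for the 6 largest rises, falls and replicate 3 drops and the 3 smallest drops among members averaging at least 50 normalized counts, for the factors, sensors and IFITM genes, and for XAF1, ISG15 and IFIT1, which were added after their values were seen, as were the genes whose sequences are printed. The members and lists were chosen with earlier results of these data known. Some genes of the pathway and marker lists are not reported here and were left out of their counts.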

Additional observations from a re-analysis of the deposited data

How the results depend on the processing

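Over 14 alternatives, 23 of the 27 rises and 5 of the 8 falls held in all, and 0 called members changed direction. Requiring a log2 fold change of at least 1 left 17 higher and 0 lower, with no share of all genes given for that threshold. With each library left out, 23 to 31 members were higher and 6 to 9 lower, and the median log2 fold change of the list lay between 0.26 and 0.50. Without RBFOX1 replicate 3, DDX58, DDX60, PLSCR1 and CMPK2 were added to the rises (31) and EIF2AK2 and IFI44 were lost from the falls (6). The interferon pathway genes gave 2 to 3 higher and 10 to 14 lower, the log2 fold change of RBFOX1 was 13.16 to 14.73, and the drop of replicate 3 had a median of -0.48 without RBFOX1 replicate 1 and -0.37 without RBFOX1 replicate 2. DESeq2 called 25 higher and 6 lower. The deviations of same-numbered libraries had correlations of -0.17, 0.034 and -0.055, and those of differently numbered libraries -0.15 to 0.18. With 3 libraries per group, these values cannot show whether the numbers pair the samples. With a replicate block 26 were higher and 8 lower. Calls over all genes moved with the setting too. They were 4869 higher and 4712 lower in the main test, and 4634 and 5001 with upper quartile scaling. The member counts of this paragraph are given without the matching shares of all genes. In the shallowest library 3 counts were worth 5.44 normalized counts. Among the members the standard error of the log2 fold change was largest in XAF1 (0.536), followed by IFITM1 (0.335), IRF9 (0.318) and IFI44L (0.316).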

Other observations

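A further 35 interferon-stimulated genes, listed after the data had been seen, gave 32 that could be tested. RBFOX1 replicate 3 was the lowest of its group in 27 of these (84.4%, against 29.6% of all genes tested), with a median log2 difference of -0.18, and 10 rose and 7 fell (31.2% and 21.9%, against 23.7% and 22.9% of all genes tested). Among them TNFSF10, the death ligand TRAIL, rose by 2.84 on the log2 scale, with 45.3, 51.1 and 53.9 normalized counts in the RBFOX1 libraries, so replicate 3 was the highest there. SLFN5 fell by 0.83, with 5659, 6454 and 5911 normalized counts in GFP and 3472, 3433 and 3224 in RBFOX1 cells. The antigen presentation genes TAP1 (-0.19) and PSMB8 (0.26) were called in opposite directions, while TAP2 (0.17), PSMB9 (0.14) and B2M (0.027) did not pass the test.

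Among genes not on the list with a mean of at least 50 normalized counts, replicate 3 lay furthest below both other RBFOX1 libraries in VNN1 (20, 16.7 and 3.65 normalized counts, reaching that mean only through its 91.1 to 131 in GFP cells), the pseudogene FAM3C2P (254, 128 and 53.0), SMN1 (212, 249 and 107), ZNF774 (52.6, 55.5 and 26.5) and ASAH2B (78.0, 81.0 and 44.7). FAM3C2P and SMN1 share reads with near-identical genes, so their counts are uncertain.

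In the control cells, GFP replicate 2 was the highest library in 31 of the 48 members (64.6%, against 32.0% of all genes tested). It was the lowest in 3 (6.25%, against 34.0% of all genes tested). Its median log2 difference from the mean of the other GFP libraries was 0.10, a smaller displacement than that of RBFOX1 replicate 3.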
